A study of Brassica oleracea with 107 samples.

Results

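The genes described here are 100 of the 16338 genes in the authors' deposited endosperm table of a Brassica oleracea seed series (the species of cabbage and broccoli), chosen because their transcripts were more abundant after 1 and after 3 days at 26 °C than at 16 °C in the endosperm fraction while no like excess was listed in the embryo. The choice ranked genes by the smaller of 2 differences between 26 °C and 16 °C, that of day 1 and that of day 3, on the log2(TPM + 1) scale. TPM is a transcript abundance per gene length, scaled so that all genes of a library sum to 1000000. Genes at a difference of 0.5 or more in embryo on either day were left out, genes missing from the embryo table were kept, and the first 100 were taken. The members were thus selected on the measured values of days 1 and 3, which are given below as a description.

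RNA was sequenced from 107 libraries in 36 groups, 3 libraries a group except 2 for endosperm at 16 °C on day 18. Plants stood at 21 °C up to bolting and at 16 °C until embryos had bent cotyledons, and seeds then developed under recovery (26 °C followed by 16 °C, with the day of the move not given in the sources used here), at 26 °C or at 16 °C. Endosperm groups were recovery on days 18 and 22, 26 °C and 16 °C on days 1, 3, 7, 15, 18 and 22 and at hours 1, 24 and 72, and 16 °C alone on day 0. Embryo groups were the same without the hours. The event from which days or hours are counted is not stated. The endosperm fraction was dissected together with the seed coat, so the source of a transcript within it is not known. Endosperm of days 7 to 22 was made into libraries with an Ovation kit and all other samples with a standard Illumina protocol. No difference taken between 2 groups below crosses that step. Where endosperm values of days 7 to 22 are set beside those of days 0 to 3 or the hours, kit and time change together.

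Each group has 1 deposited value per gene, and how its libraries were combined is not stated. No difference below has a replicate error or a test, depth is unknown, and a gene is called higher or lower where TPM + 1 of 2 groups differed 2-fold or more. Most counts of members stand beside the share called among all genes of the same table that reached 1 TPM in the set. Those shares are on the deposited values and the log2(TPM + 1) scale. They are not given for any other scaling or added constant, so member counts under these have no matching share beside them. The tables hold genes the authors selected, and the listed values of a group sum to between 47% and 76.7% of 1000000. The day 18 endosperm groups labelled 26 °C and recovery lay in the reverse of the order seen on day 22, with recovery farther from 16 °C, and results of that day are given with that limit. The reference gene table holds 53125 genes under other identifiers and pairs with none of those used here, so no member can be named by function, and markers of endosperm, seed coat or embryo could not be looked up. In a dissected tissue a lower share of one cell type and less RNA per cell cannot be told apart.

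The endosperm nourishes the growing embryo, and in mature Brassica seeds it remains as a thin living layer under the seed coat. The seed coat is maternal tissue and carries the pigments and barriers that limit water and gas entry. Both layers take part in seed dormancy, and the temperature a mother plant experiences while seeds mature is known to alter dormancy and germination in this plant family.

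The threshold fell in a dense part of the ranking. The smaller difference was 2.98 for the first member, Bo1g065170, 2.94 for the second, Bo1g037040, and 1.35 at rank 50. It was 1.14 both for the last members inside, Bo6g123910 and Bo9g174040, and for the first genes outside, Bo5g039670 and Bo1g048000. In all 440 endosperm genes had a smaller difference at least as large as the last member, and 340 of them were left out because of their embryo values, 287 of these with 0.5 or more in embryo on both days. On the embryo side Bo4g101280 was just inside the limit at 0.49 and Bo5g098060 just outside at 0.51.

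On days 1 and 3 the members were transcripts of low abundance that became moderately abundant at 26 °C. Their median was 8.61 TPM under 26 °C against 2.27 TPM under 16 °C on day 1, and 11.7 TPM under 26 °C against 2.63 TPM under 16 °C on day 3. By the rule all 100 were past 2-fold on each day, where 7.43% of 12604 genes were higher at 26 °C on day 1 and 9.79% on day 3, with 2.77% and 3.7% lower on these days, and nothing is read from that. The difference was the larger on day 3 for 65 members and on day 1 for 35, with medians of 1.59 on day 3 and 1.46 on day 1. Levels at 26 °C ran between 1.30 and 395.6 TPM on day 1 and between 1.44 and 377 TPM on day 3, and at 16 °C 29 members were under 1 TPM on day 1 and 22 on day 3.

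The steepest early course belonged to Bo5g127240, at 3.81 TPM under 26 °C against 0.095 TPM under 16 °C on day 1, and at 122 TPM under 26 °C against 0.35 TPM under 16 °C on day 3. The top-ranked Bo1g065170 was at 9.53 TPM under 26 °C against 0.34 TPM under 16 °C on day 1, and at 36.5 TPM under 26 °C against 1.09 TPM under 16 °C on day 3. Bo1g037040 was at 7.25 TPM under 26 °C against 0.072 TPM under 16 °C on day 1, and at 41.4 TPM under 26 °C against 0.34 TPM under 16 °C on day 3. All 3 were nearly silent at 16 °C and went on gaining at 26 °C between the samplings. The most abundant members differed in that their level was already high at 16 °C. Bo9g004260 was at 275 TPM under 26 °C against 123 TPM under 16 °C on day 1, and at 377 TPM under 26 °C against 163 TPM under 16 °C on day 3. Bo7g111280 was at 395.6 TPM under 26 °C against 58.6 TPM under 16 °C on day 1, and at 177 TPM under 26 °C against 51.9 TPM under 16 °C on day 3. It was the 1 member more than 2-fold lower at 26 °C on day 3 than on day 1, where 1.93% of genes were lower, while 19 members were higher, where 3.36% of genes were.

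**Figure D1:**
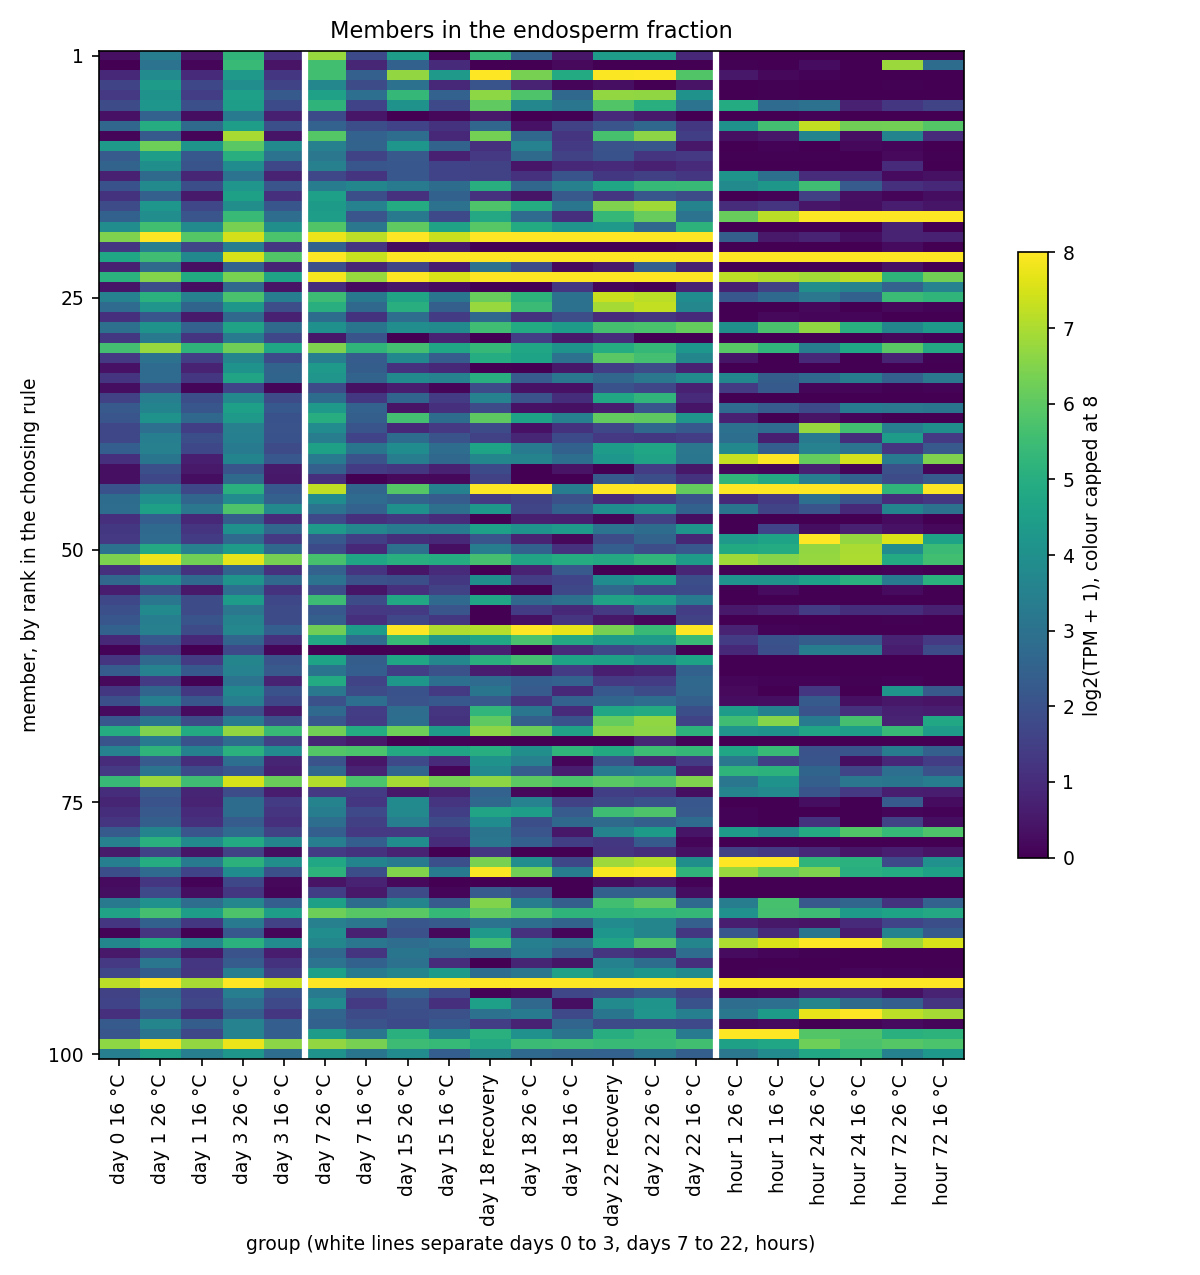
Each row is 1 of the 100 members, ordered by rank in the choosing rule, and each column 1 endosperm group; colour gives the deposited abundance on the log2(TPM + 1) scale, capped at 8. Rows are brighter at 26 °C than at 16 °C on days 1 and 3, many stay so on days 7 to 22, and 37 rows are under 1 TPM in all 6 hour groups.

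The day 0 group at 16 °C played no part in the choice and gives another baseline. Against it, 92 members were at least 2-fold more abundant under 26 °C on day 1, where 7.28% of genes were, and 91 on day 3, where 10.9% were. No member was lower in either, where 2.71% and 6.24% of genes were. For 99 of the 100 members both early 26 °C values lay above all 3 values at 16 °C of days 0, 1 and 3, where 36.8% of the 12604 genes did. In these counts only the day 0 value was new to the choice. The 26 °C values of the members had been chosen as high and those of all genes had not. The counts are thus largely set by the choice and are a description. Within 16 °C, whose values of days 1 and 3 the choice had used, none differed 2-fold between days 1 and 0, where 0.27% of genes had gained by day 1 and 0.246% had lost. On day 3, 5 were higher than on day 0, where 1.32% of genes were, and none was lower, where 0.651% were. Of these 5, Bo3g037040 and Bo6g010760 had the largest gains at 5 TPM or more, and Bo2g127490, Bo6g119800 and Bo5g148800 are named after their values were seen. The widest gain was that of Bo2g127490, with 4.85 TPM on day 3 against 0.31 TPM on day 0.

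The embryo side of the choice rests on few measured transcripts. Of the 100 members 52 are not in the embryo table, so their embryo level is not known, and 48 are listed there. Of the 48, 28 were under 1 TPM in all 4 embryo groups of days 1 and 3, where a difference on the log2(TPM + 1) scale has little room. For 20 members an embryo transcript at 1 TPM or more was listed without the excess at 26 °C. A small or negative embryo difference in these 20 was set by the rule. Of the 20, 12 had an embryo difference above 0 on day 1 and 12 on day 3. Among all 11899 genes 6612 did on day 1 and 7484 on day 3, a like share, and nothing is read from these counts. Bo9g174040, at 0.44 and 0.45, was close to the limit of 0.5. For the other 80 members the embryo level was unknown or under 1 TPM, so the values do not show a response in endosperm alone. By the rule none of the 48 was 2-fold higher at 26 °C in embryo, where 9.26% of 11899 genes were on day 1 and 5.43% on day 3. None was lower on day 1, where 3.93% were, and 1 was on day 3, where 0.79% were. That member, Bo4g120460, was at 2.03 TPM under 26 °C against 6.27 TPM under 16 °C in embryo on day 3. In endosperm of that day it was at 61.2 TPM under 26 °C against 12.9 TPM under 16 °C.

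Levels of the listed members in both tissues on day 0 at 16 °C are given as a description, since a limit on the embryo difference favours genes that are low in embryo and the genes beside them were not chosen that way. Of the 38 at 1 TPM or more in either tissue, 22 (57.9%) were at least 2-fold higher in endosperm than in embryo and 10 (26.3%) lower. Among all 8225 genes listed in both tables and at that level in either tissue the shares were 25.9% and 30.8%. The tables were scaled separately, so levels set across them carry that limit. Bo6g010760 was at 25.2 TPM in endosperm and 0.053 TPM in embryo, the widest excess in endosperm. At the other end Bo7g111280 was at 86.5 TPM in endosperm and 26200 TPM in embryo, and Bo9g011010 at 4.65 TPM in endosperm and 956 TPM in embryo.

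The summed level of transcripts that abound in embryo was also higher in endosperm at 26 °C than at 16 °C on both early days. The 10 most abundant embryo genes of day 0, of which Bo7g111280 is the 1 member, summed in endosperm to 7517 TPM under 26 °C against 5082 TPM under 16 °C on day 1, and to 12779 TPM under 26 °C against 10524 TPM under 16 °C on day 3, with 8324 TPM at 16 °C on day 0. Singly, 9 of the 10 were above their 16 °C value on day 1 and 8 on day 3, where 7423 and 7428 of all 12604 genes were. The excess of Bo7g111280, which is in these counts and sums, was set by the choice on both days. The counts and sums are a description and were not tested. In embryo the sum was lower at 26 °C on both days. It was 124762 TPM under 26 °C against 127155 TPM under 16 °C on day 1. On day 3 it was 214367 TPM under 26 °C against 240601 TPM under 16 °C. Bo1g048000, just outside the threshold, is another of the 10. Of the 48 listed members 3 reached 100 TPM in embryo on day 1 or 3, namely Bo7g111280, Bo9g011010 and Bo7g065090, the last named after its values were seen. The part of embryo RNA in the endosperm values of these members was not tested.

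**Figure D2:**
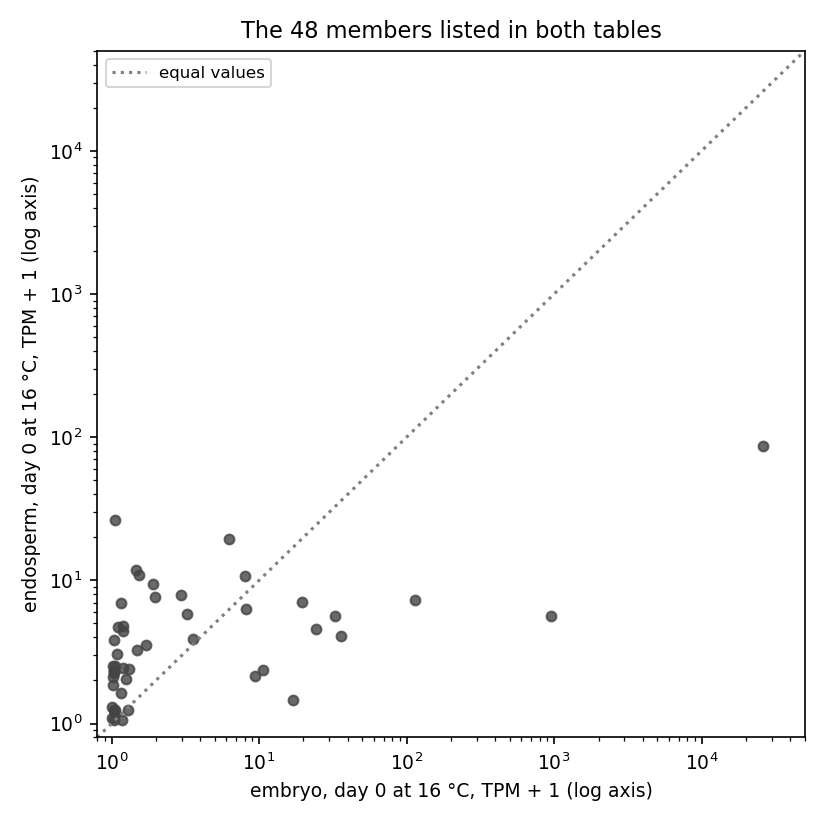
Each point is 1 of the 48 members listed in both tables, with its TPM + 1 on day 0 at 16 °C in endosperm (vertical, log axis) and in embryo (horizontal, log axis); the dotted line marks equal values. Of the 38 points at 1 TPM or more in either tissue, 22 stand at least 2-fold above the line and 10 at least 2-fold below it, and Bo7g111280, at 26200 TPM in embryo, is the point farthest to the right.

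Later days asked whether the early excess lasted, in groups and with a library kit that the choice did not use. On day 7, 65 of the 100 members were higher at 26 °C, where 11% of 14601 genes were, and 1 was lower, where 3.74% were. The median member differed by 1.26 on the log2 scale, against 0.15 for all genes. On day 15, 46 were higher, where 12% of genes were, and 1 was lower, where 8.94% were. For day 18, the group labelled 26 °C had 32 members higher and 11 lower than 16 °C, where 11.5% and 12.1% of genes were. On day 22, 48 were higher and 7 lower, where 25.9% and 19.4% of genes were. The share of members that were higher thus exceeded that of all genes by the most on day 7 and by the least, in percentage points, on days 18 and 22. Of the 100 members 98 reached 1 TPM in these groups, and the other 2 count as neither.

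**Figure D3:**
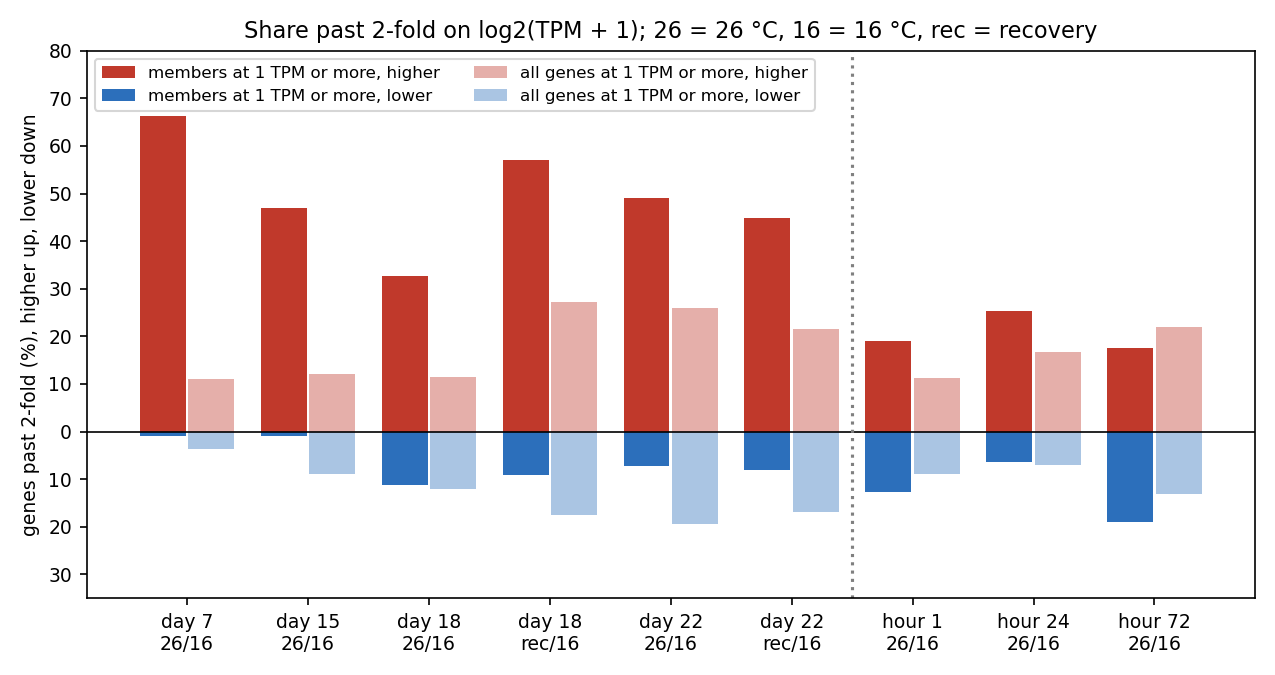
Bars give the percent of the members at 1 TPM or more in the set, 98 on the late days and 63 in hours (dark, left of each pair), and of all genes at that level (pale) that were at least 2-fold higher (upward, red) or lower (downward, blue) in the first-named condition of each label. Higher members stand at 66.3% against 11% on day 7 and 49% against 25.9% on day 22; in the hour series, right of the dotted line, they stand at 25.4% against 16.8% at hour 24 and 17.5% against 22% at hour 72.

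Members differed in how long the excess was seen. On all 4 of days 7, 15, 18 and 22, 20 members were higher, against 1.89% of all genes; without the doubtful day 18, 27 were higher on all 3 other days, against 2.78%. Another 17 were higher on none of the 4 days, against 62.4% of all genes. Taking days 7 and 22 alone, 34 were higher on both, 26 on day 7 and neither way on day 22, 14 on day 22 and not on day 7, and 21 on neither. The remaining 5 turned round, higher on day 7 and lower on day 22. These were Bo9g011010, Bo7g109000, Bo3g068170, Bo2g048030 and Bo3g005000, the last 3 named after their values were seen. This sorting by 2 days was not made for all genes, so whether its counts are particular to the members is not known. By rank in the early choice, 36 of ranks 1 to 50 and 29 of ranks 51 to 100 were higher on day 7, and 26 and 22 on day 22.

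The 48 members listed in embryo kept the excess more often than the 52 that are not, although this difference was not tested. On day 7, 35 of the 48 listed and 30 of the 52 unlisted members were higher. On day 22, 28 of the listed and 20 of the unlisted were, with medians of 1.62 and 0.44 on the log2 scale. On none of the 4 days higher were 2 of the listed and 15 of the unlisted. Of all genes 11% were higher on day 7, 25.9% on day 22, and 62.4% on none of the 4 days. All genes were not split by listing in embryo, so whether the contrast is particular to the members is not known.

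Bo1g065170 kept the excess at every later sampling. It was at 107 TPM under 26 °C against 2.45 TPM under 16 °C on day 7, and at 21.0 TPM under 26 °C against 0.086 TPM under 16 °C on day 15. On day 18 it was at 38.9 TPM in recovery, 4.65 TPM under 26 °C and 0.41 TPM under 16 °C, and on day 22 at 20.5 TPM in recovery, 20.6 TPM under 26 °C and 0.86 TPM under 16 °C. It was listed at 0 in all 6 hour groups.

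Among the day groups, Bo1g037040 was seen at 26 °C up to day 15. It was at 46.7 TPM under 26 °C against 0.80 TPM under 16 °C on day 7 and at 4.65 TPM under 26 °C against 0.92 TPM under 16 °C on day 15. From day 18 on it was listed at 0 in all groups but 16 °C on day 18, at 0.16 TPM. In the hour series it had 109.8 TPM under 26 °C against 6.05 TPM under 16 °C at hour 72, while its highest value at hours 1 and 24 was 0.20 TPM.

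Bo9g005900 was a minor transcript early and the most abundant member in recovery and 26 °C seeds of day 22. It was at 7.83 TPM under 26 °C against 2.31 TPM under 16 °C on day 1, at 150 TPM under 26 °C against 5.05 TPM under 16 °C on day 7, and at 57.9 TPM under 26 °C against 10.5 TPM under 16 °C on day 15. On day 18 it was at 3843 TPM in recovery, 282 TPM under 26 °C and 9.38 TPM under 16 °C. On day 22 it was at 4071 TPM in recovery, 7353 TPM under 26 °C and 68.6 TPM under 16 °C, a log2 difference of 6.72 between 26 °C and 16 °C and the widest among members. It also had the widest log2 difference between these temperatures on day 18, at 4.77, among members at 5 TPM or more.

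Bo9g011010, an embryo-abundant gene, turned round late. It was at 76.0 TPM under 26 °C against 20.2 TPM under 16 °C on day 7 and at 269 TPM under 26 °C against 132 TPM under 16 °C on day 15. On day 18 it was at 136 TPM in recovery, 332 TPM in the group labelled 26 °C and 207 TPM under 16 °C. The day of its turn thus depends on the doubtful labels of day 18. On day 22 it was at 81.3 TPM in recovery, 40.8 TPM under 26 °C and 300.1 TPM under 16 °C. Embryo showed the same late order, with 683 TPM in recovery, 225 TPM under 26 °C and 2057 TPM under 16 °C on day 22. Bo7g109000 was likewise lower on day 22, at 5.49 TPM under 26 °C against 34.8 TPM under 16 °C, and is not listed in embryo. Bo7g111280 had its highest endosperm value at 16 °C on day 18, 5392 TPM, against 564 TPM in the group labelled 26 °C and 1150.2 TPM in recovery; that 16 °C group has 2 libraries.

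**Figure D4:**
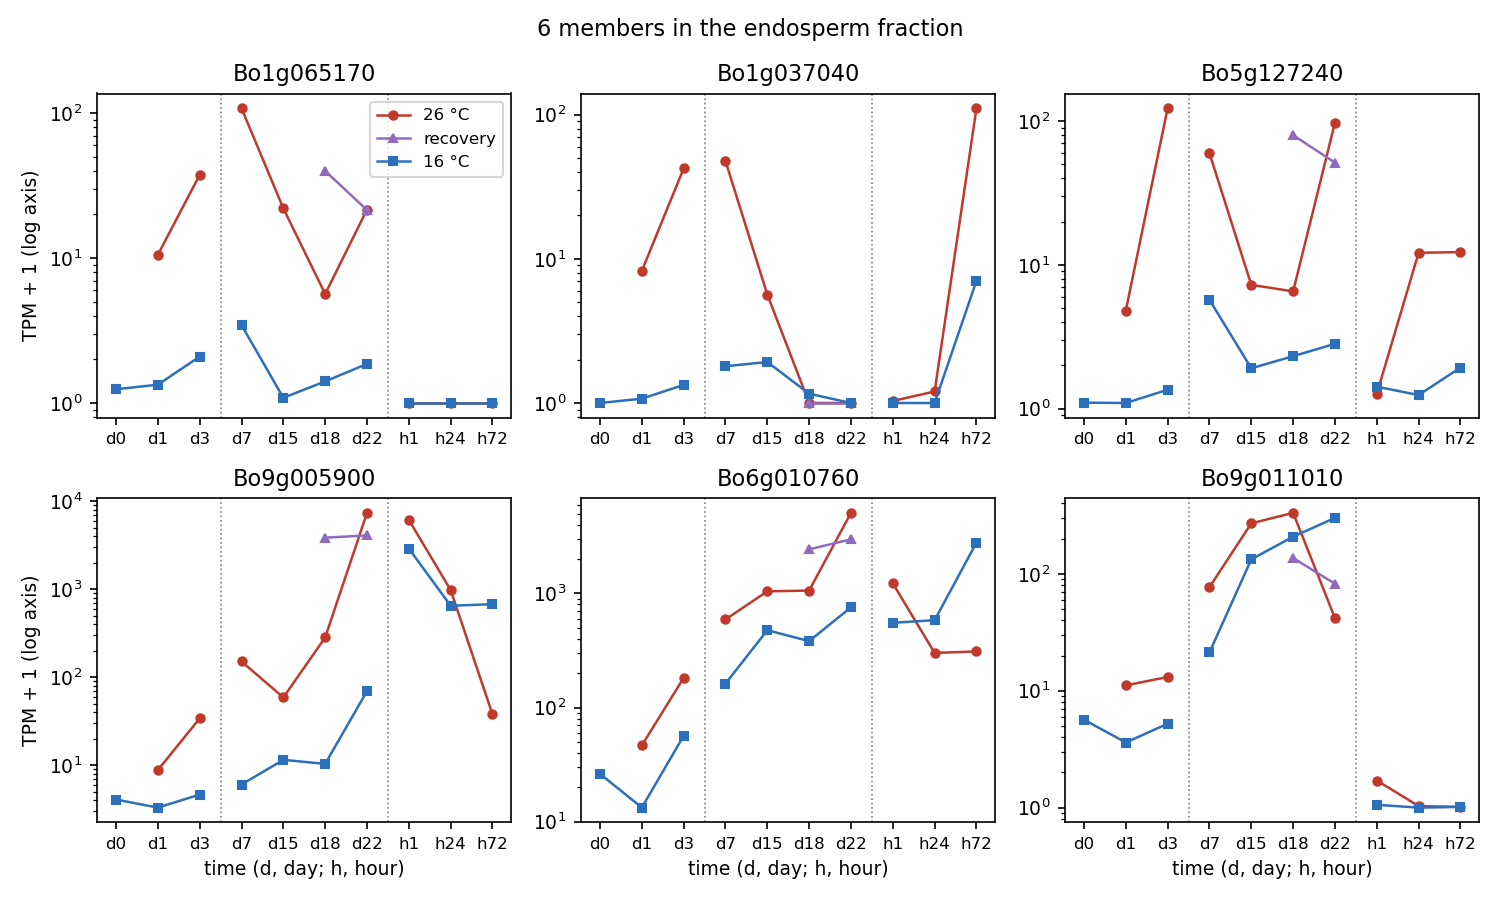
Panels show 6 members with TPM + 1 on a log axis against sampling time in the endosperm fraction, 1 deposited value per group, at 26 °C (circles), in recovery (triangles) and at 16 °C (squares); dotted lines separate the library sets. Bo1g065170 and Bo5g127240 stay above 16 °C to day 22, and Bo1g037040 is listed at 0 by then. Bo9g005900 and Bo6g010760 end highest at 26 °C on day 22 but lie under 16 °C at hour 72. With day 18 as labelled, Bo9g011010 at 26 °C lies above 16 °C to day 18 and under it on day 22.

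Single members stood out on the other late days. On day 15, Bo5g127040 was at 88.4 TPM under 26 °C against 8.90 TPM under 16 °C, second to Bo1g065170. In the group labelled 26 °C on day 18, Bo9g108400 was at 10.1 TPM, against 0.087 TPM at 16 °C. On day 22, Bo5g127240 was at 96.4 TPM under 26 °C against 1.83 TPM under 16 °C. The 1 lower on day 7 was Bo2g013730, at 0.42 TPM under 26 °C against 3.21 TPM under 16 °C, and the 1 lower on day 15 was Bo2g107590, at 1.23 TPM under 26 °C against 4.60 TPM under 16 °C, both under the 5 TPM of the naming rule and named after their values were seen.

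Recovery seeds were set against both temperatures. Against 16 °C on day 22, 44 members were higher and 8 lower in recovery, where 21.6% and 17% of genes were. This group shares its 16 °C values with the 26 °C comparison of the same day, which gave 48 and 7. Against 26 °C on day 22, 3 members were higher in recovery, where 3.43% of genes were, and 7 lower, where 2.2% were. Both member counts were 5 after rescaling without the 10 most abundant genes, with no share of all genes given after it. The 3 were Bo7g109000, at 18.5 TPM in recovery against 5.49 TPM under 26 °C, and the low Bo9g108400 and Bo2g013730, named after their values were seen. The other 88 of the 98 members at 1 TPM or more (89.8%) were within 2-fold of 26 °C, as 94.4% of all genes were. Bo8g101260 was at 67.7 TPM in recovery, 101 TPM under 26 °C and 2.10 TPM under 16 °C on that day.

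On day 18 the labels gave another picture. In recovery 56 members were higher than at 16 °C, where 27.3% of genes were, and 9 lower, where 2572 of the 14601 genes were. Against the group labelled 26 °C, 45 were higher and 5 lower in recovery, where 22.2% and 8.7% of genes were. Rescaling made the member counts 34 and 12. It also moved the median log2 difference of all genes from 0.22 to -0.03, and their shares after rescaling are not given. Bo5g127240 was at 78.8 TPM in recovery and 5.54 TPM in the group labelled 26 °C. Among the 5 lower was Bo4g120460, at 1.10 TPM in recovery and 10.6 TPM in the group labelled 26 °C. The other 4 were Bo6g062100, which the naming rule also gives, and Bo9g011010, Bo2g013730 and Bo8g101410, named after their values were seen.

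The 16 °C course from day 7 to day 22 shows how the members moved without warmth. At 16 °C, 27 were higher on day 22 and 12 lower, where 7.57% and 13.9% of genes were. After median centring the member counts were 32 and 7, and the shares of all genes after it are not given. Bo9g011010 was at 300.1 TPM on day 22 against 20.2 TPM on day 7 at 16 °C, and Bo9g005900 at 68.6 TPM on day 22 against 5.05 TPM on day 7. Of the lower ones Bo9g011400 had the widest deficit among members at 5 TPM or more, with 17.59 TPM on day 22 against 36.6 TPM on day 7. By day 15 at 16 °C, 12 members were higher and 10 lower than on day 7, where 2.46% and 5.64% of genes were. The difference between temperatures on day 15 uses neither end of the course to day 22. On that day 18 of the 27 members that gained at 16 °C were higher at 26 °C (66.7%), against 60.4% of the 1106 genes of the whole table with such a gain. Of the 12 that lost at 16 °C, 5 were higher at 26 °C on day 15 and none lower, while of the 2031 genes of the table with such a loss 2.41% were higher and 30.4% lower. Of the 59 in between, 23 (39%) were higher, against 9.05% of such genes in the table.

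The hour series of the same fraction was made with the same kit as days 0 to 3. In it 37 members were under 1 TPM in all 6 groups, 9 of them listed at 0 throughout, against 19.2% of all endosperm genes under 1 TPM. The shares of members below are of the other 63, to match the genes they stand beside. Over all 100 members, the 37 included, the median level at hour 24 was 1.74 TPM under 26 °C against 0.59 TPM under 16 °C. At hour 72 it was 0.95 TPM under 26 °C against 0.67 TPM under 16 °C. These medians do not give the typical difference. Taken member by member, the median log2 difference was 0.042 at hour 24 and 5.9e-05 at hour 72. For the 13203 genes at 1 TPM or more it was 0.12 and 0.15. At hour 1, 12 members (19%) were higher and 8 (12.7%) lower at 26 °C, where 11.2% and 8.89% of 13203 genes were. At hour 24, 16 (25.4%) were higher and 4 (6.35%) lower, where 16.8% and 7.12% were. At hour 72, 11 (17.5%) were higher and 12 (19%) lower, where 22% and 13.1% were. Beside all genes, both the higher and the lower share of members were larger at hour 1. At hour 24 only the higher share was larger, and at hour 72 only the lower. These differences rest on small counts and were not tested, and no pattern is read from them. In some hour group 18 members reached 100 TPM. Of the 48 members that were higher at 26 °C on day 22, 16 were among the 37 under 1 TPM in all hour groups.

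A few members did differ by temperature in hours. Bo5g127240 was at 11.1 TPM under 26 °C against 0.24 TPM under 16 °C at hour 24. Bo9g168930 was at 45.4 TPM under 26 °C against 3.90 TPM under 16 °C at hour 24. Bo7g115520, a member that is not listed in embryo, was higher at 26 °C at all 3 hours, with 6.40 TPM under 26 °C against 0.59 TPM under 16 °C at hour 1, 8.79 TPM under 26 °C against 1.06 TPM under 16 °C at hour 24, and 19.8 TPM under 26 °C against 1.54 TPM under 16 °C at hour 72. Others stood the other way. Bo8g091030 was at 9.16 TPM under 26 °C against 49.5 TPM under 16 °C at hour 1. Bo8g101260 was at 8.90 TPM under 26 °C against 48.5 TPM under 16 °C at hour 24, and Bo1g108940 at 2.44 TPM under 26 °C against 9.04 TPM under 16 °C. The other 2 lower at hour 24 were Bo5g148800 and Bo9g011400, named after their values were seen.

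Within the hour series at 16 °C, 13 of the 63 members (20.6%) were higher and 19 (30.2%) lower at hour 72 than at hour 1, where 29% and 19.8% of genes were. At hour 24, 12 (19%) were higher and 16 (25.4%) lower than at hour 1, where 21.8% and 15% of genes were. Bo8g067500 was at 884 TPM at hour 72 and 144 TPM at hour 1. Bo6g098430 was at 15.5 TPM at hour 72 and 252 TPM at hour 1, and Bo9g168930 at 0.86 TPM at hour 72 and 17.8 TPM at hour 1.

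Embryo was followed from day 7 on for the 48 listed members, 40 of which reached 1 TPM in some embryo group. Shares are of these 40. On day 7, 7 (17.5%) were higher and 2 (5%) lower at 26 °C, where 8.6% and 2.13% of genes were. With a pseudocount of 0.1, which enlarges the differences of low genes, 37.5% of the 48 were higher. That share is not to be set against the 8.6%. Of the 48, 31 were under 1 TPM in embryo at 16 °C on day 7. On day 15, 7 (17.5%) were higher and 5 (12.5%) lower, where 10.4% and 14.4% were; these became 9 and 3 after median centring and 7 and 8 after rescaling. The 5 lower were Bo3g068170 and, named after their values were seen, Bo4g120460, Bo6g121750, Bo2g107590 and Bo4g190950. A pseudocount of 0.1 made the day 15 shares of the 48 25% higher against 18.8% lower. On day 18, 12 (30%) were higher and 6 (15%) lower, where 14.1% and 18.8% were, or 15 and 4 after centring, and with a pseudocount of 0.1, 45.8% of the 48 were higher. On day 22, 13 (32.5%) were higher and 7 (17.5%) lower, where 26% and 15% were, or 12 and 12 after rescaling. The embryo shares of all genes are on the deposited values and the log2(TPM + 1) scale. None is given after centring, after rescaling or with a pseudocount of 0.1, so member values under these have no matching share.

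Some members did gain an embryo excess later. Bo9g005900, at 33.5 TPM under 26 °C against 32.4 TPM under 16 °C in embryo on day 1, was at 130.2 TPM under 26 °C against 16.7 TPM under 16 °C on day 7 and at 423 TPM under 26 °C against 33.0 TPM under 16 °C on day 18. Bo6g010760 was at 19.4 TPM under 26 °C against 0.23 TPM under 16 °C in embryo on day 7. Bo8g101260 was at 229.5 TPM under 26 °C against 25.7 TPM under 16 °C on day 15. In the other direction Bo3g068170 was at 9.60 TPM under 26 °C against 25.8 TPM under 16 °C on day 15, at 4.93 TPM under 26 °C against 32.3 TPM under 16 °C on day 18, and at 0.60 TPM under 26 °C against 21.7 TPM under 16 °C on day 22. Bo4g120460 was at 1.14 TPM under 26 °C against 5.94 TPM under 16 °C on day 7, and the other lower member of that day, Bo2g149500, at 0.38 TPM under 26 °C against 2.28 TPM under 16 °C, was named after its values were seen.

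The members were set beside the 100 top-ranked endosperm genes with a difference of 0.5 or more in embryo on both days, which carry the early excess in both tissues and whose early differences were larger, with endosperm medians of 2.31 on day 1 and 2.68 on day 3. On day 7, 65 members and 86 of these shared genes were higher at 26 °C in endosperm, and on day 22, 48 and 66. On day 18, in the group labelled 26 °C, the counts were 32 and 28. In the hour series 37 members and 5 shared genes were under 1 TPM throughout, and at hour 72, 11 of the 63 other members and 31 of the 95 other shared genes were higher at 26 °C and 12 and 37 lower. In embryo on day 7, 7 of 48 members and 90 of 100 shared genes were higher, where 8.6% of genes were. Of the 48, 40 reached 1 TPM in some embryo group, as all 100 shared genes did. The sets had been chosen by opposite embryo conditions on days 1 and 3, which favours such a contrast in embryo. The differences between the sets were not tested, and the early size differs between them.

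The members were spread over the genome as far as their identifiers tell, which carry a chromosome number. Between 7 and 14 members had each of the numbers 1 to 9, and 1 was on an unplaced scaffold. Chromosome 7 had 14 members, where 10.3% of the table's genes are, chromosome 1 had 7, where 9.91% are, and chromosome 3 had 13, where 15.6% are. No member directly follows another in the numbering, whose steps are 10, and 9 pairs were within 300 of each other. Of the 55 measured genes numbered directly beside a member, 1 was 2-fold higher at 26 °C on both early days, where 4.91% of all 12604 genes were. Bo5g127010, Bo5g127040 and Bo5g127240 lie within 1 such stretch, and these were named after their positions were seen.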

How the data were processed

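Values are the TPM that the authors deposited, 1 column per group in 2 tables, and no value column was left out. The submitters' processing notes name cutadapt 1.9.1, STAR 2.5 and featureCounts. Genome build, annotation, strand setting, the selection of genes and the combining of libraries: not given in the sources used here. Differences were taken on log2(TPM + 1), where low genes change less than in TPM, with a call at 2-fold; genes under 1 TPM throughout a set stayed out of the background (Python 3.11.15, pandas 2.3.3, numpy 2.4.6). The endosperm sets were days 0 to 3, days 7 to 22 and the hours. TPM holds no depth, so no interval is given. A limma fit was planned and needs values per library, so it was not run. The steps were tested on simulated data.

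The members and lists were chosen with earlier results of these data known. Named identifiers are, per comparison, up to 2 members with the largest difference in each direction at 5 TPM or more in the higher group, plus those around the threshold, the top-ranked and the most abundant members. Gene lists and tissue markers could not be looked up by name. Identifiers outside the rule are marked in the text, except where a member named once is followed through other groups.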

Additional observations from a re-analysis of the deposited data

Results flagged for a closer look

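In 5 members the difference between 26 °C and 16 °C in endosperm was at least 2-fold upward on day 22 and at least 4-fold downward at hour 72, opposite directions at 2 times of the same fraction. With 1 value per group the difference between the times was not tested, and library kit and time change together between them. Such reversals were not counted over the whole endosperm table, so whether 5 is an unusual number is not known. Bo9g005900 was at 36.9 TPM under 26 °C against 674 TPM under 16 °C at hour 72, a log2 difference of -4.15, against 6.72 on day 22. Bo8g101260 was at 0.70 TPM under 26 °C against 26.5 TPM under 16 °C at hour 72, a log2 difference of -4.01, against 5.05 on day 22. These 2 were the members with the widest deficit at hour 72. Bo6g010760 was at 309 TPM under 26 °C against 2786 TPM under 16 °C at hour 72, a log2 difference of -3.17, while on day 22 it was at 5081 TPM under 26 °C against 755 TPM under 16 °C. Bo5g148800 differed by -3.18 at hour 72 and by 1.47 on day 22, and Bo6g098430 by -2.28 and 3.15. All 5 are listed in both tissue tables.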

How the results depend on the processing

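Of 38 percentages of members (of all 100, or of the 48 listed in embryo), each under 8 alternatives, those that moved by more than 1.5 times are given first. Leaving out the filter on low values moved none. A pseudocount of 0.1 gave lower shares in endosperm at 26 °C of 2%, 6%, 22% and 11% on days 7, 15, 18 and 22, 16% and 13% for recovery over 16 °C on days 18 and 22, 10% for recovery over 26 °C on day 18 and 20% for 16 °C day 22 over day 7. It gave higher shares of 7% for recovery over 26 °C on day 22 and 25% at hour 24, and in embryo 37.5% on day 7, 25% on day 15 (lower 18.8%) and 45.8% on day 18. Median centring gave lower shares of 2% on day 7, 9% for recovery over 26 °C on day 18, 7% for 16 °C day 22 over day 7 and 6.25% in embryo on day 15. Rescaling without the 10 most abundant genes gave lower shares of 2% on days 7 and 15, 13% on day 22, 12% for recovery over 26 °C on day 18, and 16.7% and 25% in embryo on days 15 and 22, and a higher share of 5% for recovery over 26 °C on day 22. Members ranked at a pseudocount of 0.1, of which 44 of 100 are shared, gave 6% lower on day 18, higher shares of 28% and 5% for recovery over 16 °C and 26 °C on day 22 and 55% for 26 °C day 1 over day 0, and 16.7%, 20% and 23.3% lower in embryo on days 15, 18 and 22. The top 50 gave 2%, 2% and 4% lower on days 7, 15 and 22, and in embryo 6.9% lower on day 7 and 17.2% higher on day 22. The top 200 gave 2.5% lower on day 15, 4.5% lower for recovery over 26 °C on day 22, and 7.61% higher and 2.17% lower in embryo on day 7. An embryo limit of 0.25, with 78 of 100 shared, gave 2%, 2% and 11% lower on days 7, 15 and 22, 7% higher at hour 1, 1% lower at hour 24 and 7.14% higher in embryo on day 7. Some shares that moved by less also fell. The main choice gave 65%, 46%, 32% and 48% higher at 26 °C in endosperm on days 7, 15, 18 and 22. Members ranked at a pseudocount of 0.1 gave 44%, 34%, 23% and 33% on these days. An embryo limit of 0.25 gave 61%, 36%, 26% and 34%. On day 22 the share of all genes was 25.9%. The cause of these moves was not tested. No paired analysis was possible because each group has 1 column; for the same reason no replicate could be left out.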

Other observations

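Each early day was also read with genes chosen on the other day alone, so that the day read had no part in the choice; this was added after the data were examined. Of the 100 genes with the largest day 1 difference and under 0.5 in embryo on day 1, 73 were called higher under 26 °C on day 3 and none lower, where 9.79% of all genes were higher; their median log2 difference was 1.43. Of the 100 chosen in the same way on day 3, 54 were higher at 26 °C on day 1 and none lower, where 7.43% were, with a median of 1.08. The 2 lists held 61 and 35 of the members.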
